A study of Mus musculus with 4 samples.

Results

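Patrolling monocytes, also called nonclassical monocytes, are blood-derived phagocytes that crawl along the inner wall of vessels. They are known to arise from classical Ly6C-high monocytes, to depend on the transcription factor NR4A1, and to carry low surface Ly6C with high CX3CR1, CD43 (encoded by Spn) and LFA-1 (whose alpha chain is encoded by Itgal). The spleen holds a reservoir of monocytes beside its own resident macrophages.

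Here they were taken as cell barcodes with at least 2 UMIs over Ace, Treml4 and Cd300e and at least 1 UMI of Csf1r. Ace encodes angiotensin-converting enzyme, Treml4 a receptor of the TREM family, Cd300e an activating receptor of the CD300 family, and Csf1r the growth factor receptor of monocytes and macrophages. Members further had 0 UMIs of the T-cell gene Cd3e, at most 2 of the B-cell genes Cd79a and Cd79b, at most 2 of the neutrophil gene Csf3r, and under 10% mitochondrial UMIs. In all, 898 of 33120 barcodes met this rule. They were 302 of 18129 barcodes (1.67%, 95% interval 1.48 to 1.86) in the pBIC library and 596 of 14991 (3.98%, 3.67 to 4.30) in the pBIC10 library.

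The 2 gene expression libraries, each with a T-cell receptor (TCR) library from the same cells, came from spleens of 1 pBIC mouse and 1 pBIC10 mouse, both female, in a series on IL-10 from lymphoma B cells and its effect on the tumour's surroundings. An age and the alleles behind the names pBIC and pBIC10 are not given in the sources used here. After red cell lysis, sorting had fixed the mix: GFP-positive lymphoma cells made up 20% of the live cells loaded and GFP-negative cells 80%, so a share of barcodes describes a library and not a spleen. With 1 mouse per genotype no test was possible, genotype and mouse cannot be told apart, and all 95% intervals cover counting error only.

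Members held 3036572 UMIs in pBIC, with a median of 8461.5 per barcode, and 7156959 in pBIC10, with a median of 11350.5. They were set against other myeloid barcodes of the same library, with at least 1 Csf1r UMI, at least 5 Lyz2 UMIs and the same 4 upper limits, 228 in pBIC and 1558 in pBIC10. Within these comparison barcodes, 54 and 478 were Ly6c2-positive, with at least 2 Ly6c2 UMIs and at most 1 UMI of complement C1q. A further 83 and 589 were C1q-positive, with at least 5 C1q UMIs, as resident macrophages carry. A productive TCR contig was attached to 2 members in each library, against 82.8% and 89.9% of barcodes gated as T cells. Among 712 barcode sequences found in both libraries, 7 pBIC and 25 pBIC10 members occurred, and none was a member in both.

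The 3 gate genes were not found evenly. Treml4 was detected in 88.1% of pBIC and 92.6% of pBIC10 members, Ace in 69.2% and 58.7%, and Cd300e in 32.8% and 9.90%. All 3 genes were seen in 23.8% of pBIC members and in 5.54% of pBIC10 members. The median number of gate UMIs was 5 in pBIC and 3 in pBIC10, and the highest was 31 and 17. These values chose the members and are a description. The pBIC10 members thus lay nearer to the threshold, and its part in the genotype ratios below was not tested beyond the values in members with more gate UMIs given there.

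The label was checked against 20 patrolling monocyte markers outside the gate. Of the 19 with at least 20 UMIs in pBIC, 15 were at least 2-fold higher in members than in comparison barcodes, among genes of which 2.37% were that much higher and 5.38% that much lower. In pBIC10, 9 of 20 were higher and 1, Fabp4, was lower, where the shares over all genes were 1.13% and 5.41%. The median log2 ratio over the list was 1.52 in pBIC and 0.85 in pBIC10, beside -0.05 and -0.02 over all genes counted. Detection of Ly6c2 separated the pBIC10 members little. Ly6c2 UMIs were found in 52.0% of pBIC10 members and 53.3% of comparison barcodes, and in 23.2% and 38.2% in pBIC. By summed level Ly6c2 was at least 2-fold lower in members in both libraries. Members were chosen from measured values of these barcodes, so these counts and shares describe them and test nothing.

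Of 9699 genes counted in both libraries, 46 (0.474%) were at least 2-fold higher in members in each library and 126 (1.3%) were at least 2-fold lower. The 46 made up 20.6% of the genes higher in pBIC and 61.3% of those higher in pBIC10. The genes described next are those whose counting interval lay farthest from no difference in both libraries.

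The gene ranked first within these limits was Eno3 (ENSMUSG00000060600), the muscle form of the glycolytic enzyme enolase. Levels are UMIs per 1000000 UMIs of the summed barcodes (CPM). Eno3 reached 137 CPM (124 to 151) in members of the pBIC library and 41.6 CPM (37.0 to 46.6) in those of pBIC10, against 15.2 and 7.40 CPM in comparison barcodes. The log2 ratios were 3.17 (2.65 to 3.74) and 2.49 (2.19 to 2.80). Eno3 UMIs were found in 47.4% of pBIC and 26.7% of pBIC10 members, so many members had none.

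Nr4a1, the transcription factor on which these monocytes depend, stood at 191 CPM (176 to 207) in pBIC members and 28.1 CPM in comparison barcodes. In pBIC10 it stood at 95.7 CPM (88.7 to 103) and 36.7 CPM. The log2 ratio was 2.77 (2.38 to 3.18) in pBIC and 1.38 (1.23 to 1.54) in pBIC10. C1q-positive comparison barcodes held 1.41 and 16.1 CPM of Nr4a1, below the Ly6c2-positive ones at 64.9 and 59.5 CPM.

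Of the 12 genes named as higher, 4 act in adhesion and migration. Spn, which encodes the sialoglycoprotein CD43, stood at 309 and 111 CPM in members against 77.1 and 38.4 CPM. Cx3cr1, the fractalkine receptor, stood at 195 and 52.0 CPM against 59.0 and 18.3 CPM. Itga4, the alpha-4 integrin chain, stood at 635 and 485 CPM against 279.9 and 167 CPM. Ceacam1, an adhesion receptor with inhibitory motifs, stood at 151 and 62.7 CPM against 38.1 and 20.1 CPM. In each of these 4 genes the member level was above both kinds of comparison barcode in both libraries.

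Signalling genes made up the rest of those named. Gngt2, a G-protein gamma subunit, was at 1129 CPM (1091 to 1167) in members of the pBIC library and at 673 CPM (654 to 692) in those of pBIC10, with UMIs in 96.4% and 96.6% of them. Its levels in comparison barcodes were 393 and 219 CPM. Abi3, an adaptor of the WAVE complex, stood at 325 and 109.5 CPM against 113 and 46.9 CPM. Gngt2 and Abi3 overlap in the annotation, so how reads were divided between them is uncertain. The MAP kinase phosphatases Dusp5 and Dusp16 had log2 ratios of 2.34 and 2.24 in pBIC and of 1.52 and 1.21 in pBIC10. Cd300ld, a CD300 receptor outside the gate, had log2 ratios of 2.44 and 1.37, and the kinase gene Stk10 of 1.71 and 1.20.

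**Figure D1:**
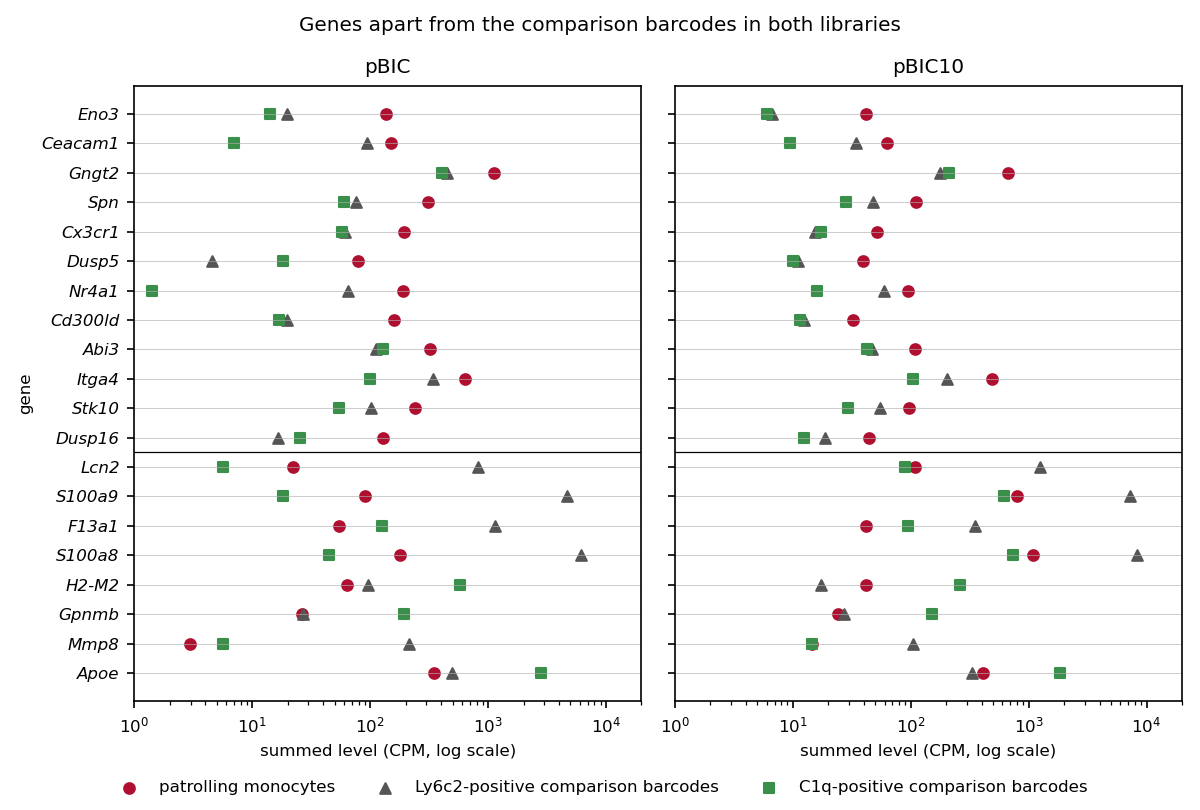
Summed level in CPM (log axis) of the 12 genes named as higher (above the line) and 8 named as lower (below it), in patrolling monocytes and in Ly6c2-positive and C1q-positive comparison barcodes, by library. Red points lie to the right of both other marks for the upper genes, while most lower genes are high in only 1 kind of comparison barcode.

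The promoters of Spn and Itga4 are shown, picked as the richest in one short motif among the higher genes with a promoter sequence. The sequences are the 250 bases before the RefSeq transcript start of build GRCm38.p6, read 5' to 3' on the gene's strand, with the motif CACCC or its complement GGGTG in capitals. CACCC is the core that factors of the KLF family bind. Klf2 is among the markers above and was at least 2-fold higher in members in pBIC only, and its part was not tested. Spn lies on the minus strand at chr7:127137824-127138073 and Itga4 on the plus strand at chr2:79255176-79255425.
Spn: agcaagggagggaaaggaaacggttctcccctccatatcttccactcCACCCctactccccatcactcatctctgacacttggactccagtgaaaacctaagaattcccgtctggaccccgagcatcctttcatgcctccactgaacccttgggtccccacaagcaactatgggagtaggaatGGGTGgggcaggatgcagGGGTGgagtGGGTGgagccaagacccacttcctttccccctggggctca
Itga4: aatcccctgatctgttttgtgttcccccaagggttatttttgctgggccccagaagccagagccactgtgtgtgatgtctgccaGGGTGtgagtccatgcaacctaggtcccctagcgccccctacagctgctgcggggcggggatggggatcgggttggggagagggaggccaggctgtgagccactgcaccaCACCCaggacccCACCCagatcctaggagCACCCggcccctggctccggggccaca
The genes were matched by symbol, and each of these promoters holds 4 matches. Of the 12 higher genes 10 were in the promoter table, and 9 of these held CACCC on either strand, as did 3 of the 8 lower genes and 51.3% of 27025 promoters of the same length. The letters AAGGTCA, an NR4A site, were in none of the 10 or the 8 and in 4.05% of all promoters. The C/EBP letters TTGCNNAA were in 0 of the 10, in 3 of the 8 (Lcn2, S100a9 and Mmp8) and in 9.55% of all. The octamer ATGCAAAT was in none of either set and in 1.61% of all. A match describes letters and not a bound site.

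The 8 genes named as lower in members were of 2 kinds by where they were high. Alarmin and granule genes were high in Ly6c2-positive comparison barcodes. S100a9, a subunit of calprotectin, stood at 90.6 CPM in pBIC members against 1703 CPM in comparison barcodes, and at 795 against 3190 CPM in pBIC10. Lcn2, which encodes lipocalin-2, stood at 22.1 against 270.4 CPM and at 108 against 513 CPM. F13a1, a coagulation factor subunit carried by classical monocytes, stood at 54.0 against 429 CPM and at 42.1 against 178 CPM. S100a8, the other calprotectin subunit, and Mmp8, a neutrophil collagenase, were also among the 8.

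The second kind was high in C1q-positive comparison barcodes. Apoe, the lipid carrier apolipoprotein E, stood at 347 CPM in pBIC members against 1184 CPM, and at 407 against 980 CPM in pBIC10. Gpnmb, a lysosomal glycoprotein of macrophages, stood at 26.7 against 129 CPM and at 24.0 against 83.0 CPM. H2-M2, a nonclassical MHC class I gene, stood at 63.9 against 259.9 CPM and at 41.9 against 145 CPM, with UMIs in only 3.31% and 7.38% of members. The direction of these lower genes depended on the comparison barcodes. Set against C1q-positive barcodes alone, the log2 ratios of S100a9 were 2.31 and 0.37, those of S100a8 1.98 and 0.56, and those of Lcn2 1.97 and 0.26. Set against Ly6c2-positive barcodes alone, Apoe and H2-M2 had log2 ratios of 0.31 and 1.27 in pBIC10. F13a1 was lower in members than in either kind in both libraries.

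Marker lists of other cell types were counted in the same way. Over all genes 2.37% and 1.13% were at least 2-fold higher against all comparison barcodes and 5.38% and 5.41% lower. Of 12 classical monocyte markers, 6 were at least 2-fold lower in pBIC members and 3 in pBIC10 members, and 0 were higher. The 20 patrolling markers summed to 6476 CPM in pBIC members against 2580 CPM in comparison barcodes, and to 4077 against 2466 CPM in pBIC10. The 12 classical markers summed to 6156 against 8782 CPM in pBIC and to 9635 against 10823 CPM in pBIC10. In pBIC10 members the classical sum was thus above the patrolling sum. Against C1q-positive barcodes alone, 4 of the 12 (Hp, Plac8, Chil3 and Vcan) were higher and 2 lower in pBIC. In pBIC10 1, Plac8, was higher and 2 lower in that comparison. Spleen macrophage markers were lower for 8 of 11 in pBIC and for 4 of 11 in pBIC10, where Spic was higher. This direction turned against Ly6c2-positive barcodes, which were chosen for little C1q. There 4 of 9 were higher and 1 lower in pBIC. In pBIC10 6 of 10 were higher, Spic, Vcam1 and Mertk among them, and 0 lower. Against C1q-positive barcodes 8 of 10 and 8 of 11 were lower, and 1, Adgre1, was higher in pBIC10. All 7 neutrophil markers counted in pBIC and all 8 in pBIC10 were lower. The 8 markers summed to 13119 and 18718 CPM in Ly6c2-positive barcodes, which thus carried much neutrophil marker RNA. They summed to 88.7 and 1752 CPM in C1q-positive barcodes and to 282 and 2023 CPM in members. Against C1q-positive barcodes alone, 2 of 3 were higher and 1 lower in pBIC, and 3 of 8 were lower and 0 higher in pBIC10. Among T-cell markers, 1 of 7 was lower in pBIC and 1 of 8, Cd5, was higher in pBIC10. The 8 T-cell markers summed to 47.4 and 38.8 CPM in members, against 59.5 and 38.1 CPM in comparison barcodes. The 6 B-cell markers summed to 121.5 and 72.1 CPM, against 145 and 78.5 CPM.

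Each kind of comparison barcode was also taken alone. Against the 54 pBIC and 478 pBIC10 Ly6c2-positive barcodes, 14 of 19 patrolling markers in pBIC and 8 of 20 in pBIC10 were at least 2-fold higher in members and 0 were lower. Over all genes 7.02% and 2.57% were that much higher, and 3.73% and 5.46% that much lower. Classical monocyte markers were lower for 10 of 12 in pBIC and 8 of 12 in pBIC10. These included Ccr2, the chemokine receptor of classical monocytes, at 201 and 166 CPM in members against 685 and 369 CPM. Only Lyz1, a lysozyme gene near-identical to Lyz2, was at least 2-fold higher in members among the 12, in both libraries. Against the 83 and 589 C1q-positive barcodes, 15 of 19 and 13 of 20 patrolling markers were higher and 1, Fabp4, was lower in each library. Over all genes 9.39% and 2.57% were higher in that comparison, and 5.05% and 4.38% lower. Fabp4, a fatty acid carrier, stood at 11.2 and 3.91 CPM in members, 23.9 and 17.6 CPM in C1q-positive barcodes, and 0 and 1.31 CPM in Ly6c2-positive ones. Itgal, the LFA-1 alpha chain, stood at 270.4 and 113 CPM in members, 167 and 88.5 CPM in Ly6c2-positive and 54.9 and 42.7 CPM in C1q-positive barcodes.

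Transcription factors of monocytes were higher for 7 of 16 counted in pBIC and for 2 of 16, Nr4a1 and Pou2f2, in pBIC10. Over all genes 2.37% and 1.13% were that much higher, also beside the adhesion counts that follow. Klf2, a factor of quiescence and trafficking, stood at 442 and 250.4 CPM in members against 134 and 142 CPM. Cebpb, a factor needed for these monocytes to persist, stood at 2007 and 1767 CPM against 955 and 1258 CPM. Adhesion genes were higher for 6 of 16 in pBIC and 4 of 16 in pBIC10, and Pecam1, an endothelial and leukocyte adhesion molecule, led the list with log2 ratios of 3.04 (2.54 to 3.58) and 2.08 (1.73 to 2.44). S1pr5, a receptor for sphingosine-1-phosphate that guides monocyte egress, had log2 ratios of 3.62 (2.66 to 4.78) and 3.23 (2.14 to 4.48).

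Genes of division were at least 2-fold lower for 4 of 14 in pBIC and 8 of 14 in pBIC10, and none was higher. Over all genes 5.38% and 5.41% were lower, also beside the complement and tumour lists below. In pBIC the division count depended on the comparison barcodes. Against Ly6c2-positive barcodes 3 of the 14 (Cdk1, Birc5 and Ccnb2) were higher and 1 lower, with a median log2 ratio of 0.06. Against C1q-positive ones 1, Ccnd3, was higher and 3 lower. Over all pBIC genes 7.02% and 9.39% were higher in these comparisons and 3.73% and 5.05% lower. The 1 of 14 higher is near its share. In pBIC10, 10 of 14 and 3 of 14 were lower in these comparisons and 0 higher, beside 5.46% and 4.38% of all genes lower. Complement and coagulation genes were lower for 8 of 16 and 6 of 17 against all comparison barcodes, but the 3 C1q chains were higher than in Ly6c2-positive barcodes, which were chosen for little C1q. Tumour-associated macrophage genes were lower for 5 of 9 and 8 of 13. No gene of MHC class I or class II presentation reached 2-fold against all comparison barcodes in either library. Of the interferon response list 0 of 15 did so in either library. All 11 class II genes had ratios below 0 in both libraries, with medians of -0.18 and -0.35, but this direction turned with the comparison barcodes. Against Ly6c2-positive barcodes all 11 were above 0 in both libraries, with medians of 0.70 and 0.84, and 3 were at least 2-fold higher in each, H2-Eb1 and H2-Aa in both. Against C1q-positive barcodes the medians were -0.58 and -0.80, and 3 were at least 2-fold lower in pBIC10, while H2-Ob was higher in pBIC. Among ligands for T cells 0 were higher, and 2 of 15 in pBIC and 1 of 17 in pBIC10 were lower, beside 5.38% and 5.41% of all genes. In pBIC10 the count is thus near that share. Cd274, which encodes PD-L1, stood at 240.1 and 226 CPM in members against 195 and 161 CPM, with UMIs in 79.5% and 83.1% of members.

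Among LILR, PIR, CD300 and SIRP receptors 5 of 25 were higher and 1, Trem2, lower in pBIC, and 1 of 25, Cd300ld, was higher and Trem2 lower in pBIC10. Over all genes 2.37% and 1.13% were higher and 5.38% and 5.41% lower, so apart from the 5 higher in pBIC these counts are near the shares of all genes. Fcgr4, the activating IgG receptor typical of these monocytes, stood at 195 and 149 CPM in members against 106 and 102 CPM, short of 2-fold. Of 16 survival and death genes 0 reached 2-fold in pBIC, and 2 were higher in pBIC10. These were Bcl2, the survival factor of these monocytes, at 29.2 against 12.9 CPM, and Pmaip1.

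The members were themselves a gradient. Grouped by gate UMIs per barcode as 2, 3 to 4, 5 to 9 and 10 or more, Nr4a1 stood at 69.3, 108, 216.5 and 356 CPM in pBIC. In pBIC10 it stood at 63.4, 95.2, 119 and 194 CPM. Spn went from 122 CPM in the lowest to 567 CPM in the highest group in pBIC, and from 63.4 to 335 CPM in pBIC10. Eno3 went from 24.1 to 250.3 CPM and from 20.9 to 114 CPM. Each of these 3 genes was highest in the group with the most gate UMIs, in both libraries.

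Genes of the neighbouring cell types were lowest in the group with the most gate UMIs. Ly6c2 stood at 238 CPM in pBIC members with 2 gate UMIs, 451 with 3 to 4, 149 with 5 to 9 and 23.9 with 10 or more. In pBIC10 it stood at 514, 346.5, 276 and 96.8 CPM. C1qa went from 775 to 36.6 CPM in pBIC and from 364 to 52.1 CPM in pBIC10, and H2-Aa, an MHC class II chain, from 7969 to 2844 CPM and from 5037 to 2341 CPM. Just outside the gate, with 1 UMI, lay 82 pBIC and 377 pBIC10 barcodes, with Nr4a1 at 27.4 and 52.5 CPM and Ly6c2 at 586 and 575 CPM. A barcode with more UMIs in all can also reach more gate UMIs, and median depth was 12213.5 UMIs in the lowest and 9266 in the highest pBIC group, and 12032 and 10566 in pBIC10.

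**Figure D2:**
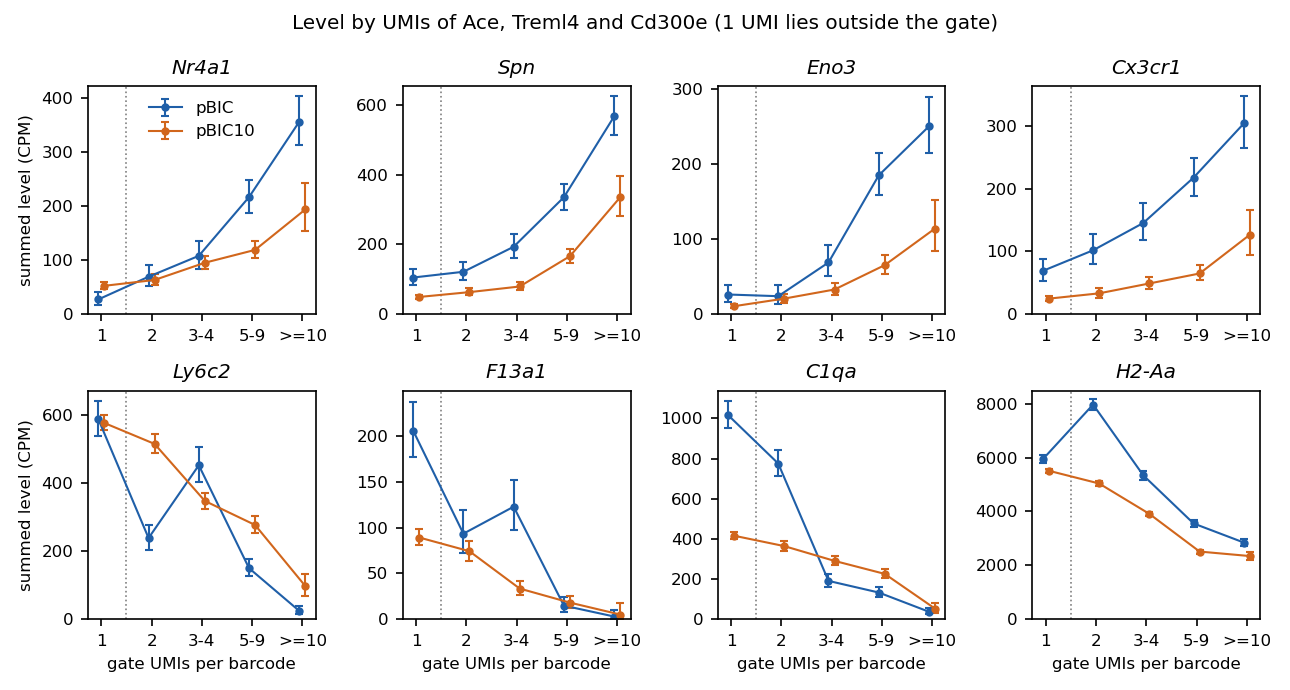
Summed level in CPM (linear axis from 0, with 95% counting intervals) of 8 genes by the number of gate UMIs per barcode, in pBIC and pBIC10, where barcodes with 1 UMI lie outside the gate. Nr4a1, Spn, Eno3 and Cx3cr1 are highest at 10 or more UMIs, and Ly6c2, F13a1, C1qa and H2-Aa are lowest there.

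A split by which gate gene was seen separated the members in the same direction. The 180 pBIC and 307 pBIC10 members with both Ace and Treml4 held 287 and 118 CPM of Nr4a1 and 18.0 and 199 CPM of C1qa. The 86 and 245 members with Treml4 and without Ace held 45.0 and 69.2 CPM of Nr4a1 and 642 and 399.9 CPM of C1qa. At least 5 C1q UMIs were present in 26 pBIC members and in 117 pBIC10 members, which makes the C1q overlap larger in pBIC10.

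Il10, the gene of the cytokine the series is about (ENSMUSG00000016529), was scarce in patrolling monocytes. In pBIC 24 UMIs were found in 12 of 302 members, a level of 7.90 CPM (5.06 to 11.8). In pBIC10 there were 7 UMIs in 5 of 596 members, or 0.978 CPM (0.393 to 2.02). T barcodes of the same libraries stood at 42.8 and 30.3 CPM, and B barcodes at 31.3 and 0.444 CPM. Erythroid barcodes, which should lack the gene, stood at 1.17 CPM (0.536 to 2.23) and 0.210 CPM (0.00531 to 1.17).

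Against comparison barcodes at 3.33 and 0.163 CPM, the log2 ratio of Il10 in members was 1.25 (-0.01 to 2.70) in pBIC and 2.58 (0.45 to 5.17) in pBIC10. The pBIC interval thus includes no difference, and the pBIC10 ratio rests on 7 and 3 UMIs. Set against comparison barcodes without the 4 limits, which can hold T-cell RNA, the direction turned, with log2 ratios of -0.33 and -1.20. A single pBIC barcode held 10 of the 24 UMIs. It had 0 Lyz2 UMIs, 5 UMIs of T-cell markers and 4 of B-cell markers, and without it the pBIC level was 4.62 CPM (2.53 to 7.75).

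Il10 UMIs were found in 3.97% of pBIC members, at a median depth of 8461.5 UMIs, and in 0.839% of pBIC10 members, at 11350.5. Erythroid barcodes gave 2.69% and 0.417%, at medians of 19819 and 19821.5 UMIs. After each barcode was thinned to 2000 UMIs, which left out 6 and 3 members, the shares were 1.69% (0.551 to 3.90) and 0.506% (0.104 to 1.47). Erythroid barcodes then gave 0 of 302 and 0 of 163. The upper bounds there were 1.21% and 2.24%, above the lower bounds of the member shares. The intervals thus overlapped, and the difference between these shares was not tested. By summed level, members stood above erythroid barcodes in pBIC, with a log2 ratio of 2.75 (1.60 to 4.04). That level includes a barcode with 10 Il10 UMIs. The interval in pBIC10 included no difference, at 2.22 (-0.74 to 7.71). Neutrophil barcodes, with at least 3 Csf3r and 20 S100a8 and S100a9 UMIs and no Csf1r, stood at 7.07 CPM (2.30 to 16.5) and 1.45 CPM. Against them members had log2 ratios of 0.16 (-1.26 to 1.91) and -0.56 (-2.96 to 2.74). Members thus did not stand above neutrophil barcodes in either library.

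Levels were also taken by T-cell RNA. The 111 pBIC members with at least 1 T-marker UMI held 14.9 CPM (8.68 to 23.9) and the 191 without held 3.69 CPM (1.48 to 7.61). This gap rested on the barcode with 10 Il10 UMIs, which is among the 111. Without it the other 110 held 6.18 CPM (2.48 to 12.7), and the intervals overlapped widely. In pBIC10 all 7 UMIs were in members without T-marker UMIs, at 1.52 CPM. Barcodes that met the gate but carried Cd3e UMIs, 105 in pBIC and 79 in pBIC10, stood at 19.4 and 10.6 CPM, and 41 and 27 of them had a TCR contig. The part of T-cell RNA in the member level was not tested. Of the 12 pBIC members with Il10, 11 also had Nr4a1 UMIs and 11 lacked Ly6c2. In pBIC10 5 of 5 had Nr4a1 UMIs and 4 of 5 lacked Ly6c2. Among all members, Nr4a1 UMIs were found in 55.3% and 45.5%, and Ly6c2 UMIs in 23.2% and 52.0%. The counts are small, and a link of Il10 with either gene was not tested.

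**Figure D3:**
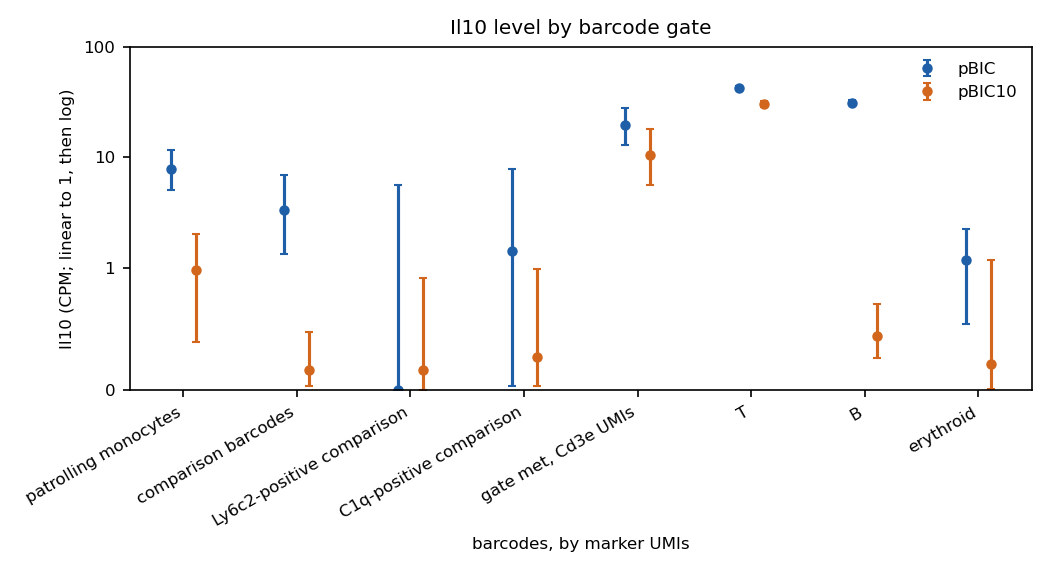
Il10 level in CPM (linear up to 1, log above) with 95% counting intervals in barcodes gated by marker UMIs, in pBIC and pBIC10. Patrolling monocytes stand at 7.90 and 0.978 CPM, below T barcodes in both libraries and below the barcodes that met the gate but carried Cd3e UMIs.

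Transcripts of the IL-10 receptor were detected in most members. Il10ra, the ligand-binding chain, was at 198 CPM (182 to 214) in members of the pBIC library and at 163 CPM (153 to 172) in those of pBIC10, with UMIs in 75.5% and 78.5% of them. Il10rb, the shared chain, stood at 99.5 and 75.6 CPM. Stat3, the factor the receptor activates, stood at 238 and 131 CPM, and its feedback inhibitor Socs3 at 330 and 220.3 CPM. Of 14 genes of the IL-10 receptor and its STAT3 response, 0 reached 2-fold between members and comparison barcodes in either library, and 0 did so between genotypes in members. The list's median log2 ratio between genotypes was -0.44, beside -0.26 over all genes. Il1rn, the interleukin-1 receptor antagonist that IL-10 is known to induce, stood at 220.3 and 229 CPM in members against 135 and 122 CPM.

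Between genotypes, more genes were lower in pBIC10 members than higher. Of 10359 genes with at least 20 UMIs, 395 (3.81%) were at least 2-fold higher in pBIC10 and 1224 (11.8%) at least 2-fold lower. The median log2 ratio was -0.26, so the whole distribution was shifted, and after centring on it 630 were higher and 732 lower. The share of higher among called genes went from 24.4% to 46.3%. Ratios below are uncentred and are read against this shift. In comparison barcodes 4.28% of 11446 genes were higher and 13.6% lower, with a median of -0.28. The shares were 6.95% and 10.2% in Ly6c2-positive barcodes, 6.18% and 12.1% in C1q-positive ones, and 10.9% and 10% in T barcodes.

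Adam8, a membrane protease of myeloid cells, ranked first among the genes named as higher. Its level was 1.98 CPM (0.725 to 4.30) in pBIC members, from 6 UMIs, and 46.2 CPM (41.4 to 51.5) in pBIC10 members, a log2 ratio of 4.55 (3.41 to 6.01). In comparison barcodes its ratio was 0.98 (0.64 to 1.33). Fn1, the matrix protein fibronectin, stood at 59.6 and 309 CPM in members, with log2 ratios of 2.38 (2.16 to 2.60) in members and 0.66 (0.56 to 0.76) in comparison barcodes. Chil3, a chitinase-like protein of monocytes and alternatively activated macrophages, stood at 1396 and 5025 CPM, with ratios of 1.85 and 0.89. In Adam8, Fn1 and Chil3 the member interval lay above the interval of all comparison barcodes together, and the difference itself was not tested. In C1q-positive barcodes alone the ratio of Chil3 was 2.82 and that of Fn1 0.61, and in Ly6c2-positive ones 0.07 and 0.20. T barcodes, which should lack both, had ratios of 3.18 for Chil3, at 12.1 and 110 CPM, and of 3.30 for Fn1, at 0.619 and 6.10 CPM. T barcodes held 14.9 and 81.7 CPM of Adam8, with a ratio of 2.46, so its level in members was below theirs in both libraries. The part of free RNA in these genes was not tested. Vcan, the matrix proteoglycan versican, had ratios of 1.75 in members and 0.04 in comparison barcodes. The latter joined 2.45 in C1q-positive with -0.47 in Ly6c2-positive barcodes, and T barcodes had 1.82, at 0.501 and 1.77 CPM, so higher levels in pBIC10 were not particular to members. Basp1 had ratios of 1.59 in members and 0.10 in comparison barcodes, with 0.02 in C1q-positive, -0.83 in Ly6c2-positive and 2.87 in T barcodes. Saa3, an acute-phase protein, had -0.44 in members and -1.75 in comparison barcodes, but 0.66 in members with at least 5 gate UMIs and 2.50 in T barcodes.

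The other genes named as higher ranged in log2 ratio from 2.06 for Wdfy1 to 3.49 for Htra3, a secreted serine protease. Htra3 stood at 9.88 and 111 CPM in members, and at 0.952 and 61.1 CPM in comparison barcodes. Egr1, an immediate early factor, stood at 66.9 and 344 CPM. Of the immediate early and stress list, 4 of 13 genes were higher in pBIC10 members and 0 lower, and in comparison barcodes 7 of 16 were higher. T barcodes held 93.0 and 95.6 CPM of Egr1, a ratio of 0.04. Coagulation factor F7, the matrix protein Ecm1, the adaptor Dok2 and the lipid droplet protein Hilpda were higher by 2.67, 2.33, 2.36 and 2.20.

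The lower genes included several of the patrolling type itself. S1pr5 was at 52.7 CPM (44.8 to 61.5) in members of the pBIC library and at 4.61 CPM (3.17 to 6.48) in those of pBIC10, a log2 ratio of -3.51 (-4.10 to -2.97). Pecam1 stood at 137 and 24.9 CPM, with a ratio of -2.46 (-2.72 to -2.20). Dpp4, the surface peptidase CD26, stood at 97.8 and 12.7 CPM, with a ratio of -2.94. Of the 20 patrolling markers outside the gate, 10 were at least 2-fold lower in pBIC10 members and 0 higher, with a median of -1.06, beside -0.26 over all genes. In comparison barcodes 5 of the 20 were lower, Spn and Cx3cr1 among them, and 2, Ear2 and Cd36, higher, with a median of -0.55. Pecam1 was also at least 2-fold lower in comparison barcodes, while Nr4a1 had a ratio of 0.39 there. Cx3cr1 was at least 2-fold lower in Ly6c2-positive, C1q-positive and T barcodes as well, and S1pr5 in T barcodes. Lower levels of S1pr5, Pecam1, Spn and Cx3cr1 in pBIC10 were thus not particular to members. In members with at least 5 gate UMIs in both libraries the ratios of S1pr5, Pecam1 and Dpp4 were -3.33, -2.35 and -2.51, and those of Spn, Cx3cr1 and Nr4a1 were -1.14, -1.74 and -1.06. Without members holding at least 5 C1q UMIs they were -3.50, -2.35 and -3.02, and -1.44, -1.70 and -1.01. By counts, 7 of the 20 markers were lower among members with at least 5 gate UMIs, where 3% of all genes were higher and 9.85% lower. Without the C1q-rich members 11 of 20 were lower, where 3.87% of all genes were higher and 11.3% lower. The markers were higher for 0 of 20 in both.

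The transmembrane genes Tmem176a and Tmem176b had ratios of -2.60 and -2.47 in members and of -2.33 and -2.32 in comparison barcodes. The adhesion molecule Cadm3, the lysosomal transporter Slc46a3 and Smagp had ratios of -3.32, -2.87 and -2.72 in members. The histone genes Hist1h2ae and Hist1h1d had -3.18 and -2.69, and reads of such near-identical families may be divided unevenly. Genes of division were lower for 10 of 14 in pBIC10 members and higher for 0, with a median of -1.36. They were lower for 7 of 14 in comparison barcodes, with a median of -0.98, and for 6 of 14 in C1q-positive ones, while 5 of 14 were higher and 1 lower in Ly6c2-positive ones. Pclaf and Stmn1 stood at 52.0 and 55.0 CPM in pBIC members and at 12.9 and 18.7 CPM in pBIC10 members, while their ratios in comparison barcodes were -0.15 and -0.11. In members with at least 5 gate UMIs these ratios were -1.11 and -0.89, and that of Hist1h1d was -1.16. T barcodes held 245 and 161 CPM of Pclaf, above members in both libraries.

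Interferon response genes were lower for 8 of 15 in pBIC10 members, with a median of -1.14, and for 7 of 15 in comparison barcodes. Among members with at least 5 gate UMIs only 3 of 14 were lower, with a median of -0.43. In T barcodes 5 of 15 were lower and 1 higher. Irf7, which amplifies interferon production, stood at 312.5 and 113 CPM in members, a log2 ratio of -1.47 beside -1.40 in comparison barcodes. The counting intervals of the 2 ratios overlapped. Of 13 interferon-gamma GTPase genes, 5 were lower in pBIC10 members and 5 in comparison barcodes, and 2 of 12 among members with at least 5 gate UMIs.

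A few genes had ratios of opposite sign or widely apart. Runx2, a Runt-family transcription factor, stood at 34.2 and 17.5 CPM in members and at 2.86 and 8.54 CPM in comparison barcodes. Klf4, a factor of monocyte differentiation, stood at 68.5 and 46.7 CPM in members and at 31.9 and 61.9 CPM in comparison barcodes. Ear2, an eosinophil-associated ribonuclease whose reads may be divided with near-identical family members, stood at 89.2 and 103 CPM in members and at 13.3 and 79.9 CPM in comparison barcodes. H2afx, a histone variant of DNA damage signalling, had ratios of -1.70 and 0.26. Members were above comparison barcodes in both libraries for Runx2 and Ear2, and only in pBIC for Klf4.

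Among chemokines and cytokines 5 of 23 were higher and 6 lower in pBIC10 members. Cxcl9, an interferon-gamma-induced T-cell attractant, stood at 934 and 300.3 CPM, and Ccl6, a chemokine of myeloid cells, at 395 and 994 CPM. Il12b, the shared chain of interleukins 12 and 23, had the ratio farthest below 0, -5.45, but its 37 pBIC UMIs lay in 0.662% of members. Of the tumour-associated macrophage list 6 of 12 were higher and 1 lower in members. In comparison barcodes 5 of 13 were higher and 3 lower, in C1q-positive ones 6 of 12 and 1, and in T barcodes, which should lack most of these genes, 8 of 11 and 0. Arg1, the arginase of such macrophages, had 0 UMIs in pBIC members and stood at 30.9 CPM in 4.53% of pBIC10 members, a log2 ratio of at least 4.97 against a floor of 3 UMIs over all pBIC members. It stood at 226 CPM in C1q-positive comparison barcodes of pBIC10.

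Neutrophil markers were higher for 6 of 7 in pBIC10 members and for 7 of 8 in T barcodes, while in comparison barcodes 2 of 8 were higher and 2 lower. S100a9 stood at 90.6 and 795 CPM there. T barcodes, which should lack it, held 159 and 738 CPM, so the member levels were near those of T barcodes in both libraries. Erythroid markers were lower for 5 of 5 in pBIC10 members and for 5 of 5 in comparison barcodes. Hbb-bs stood at 241 and 43.9 CPM in members and at 159 and 73.6 CPM in T barcodes. The part of free RNA in these lists was not tested.

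**Figure D4:**
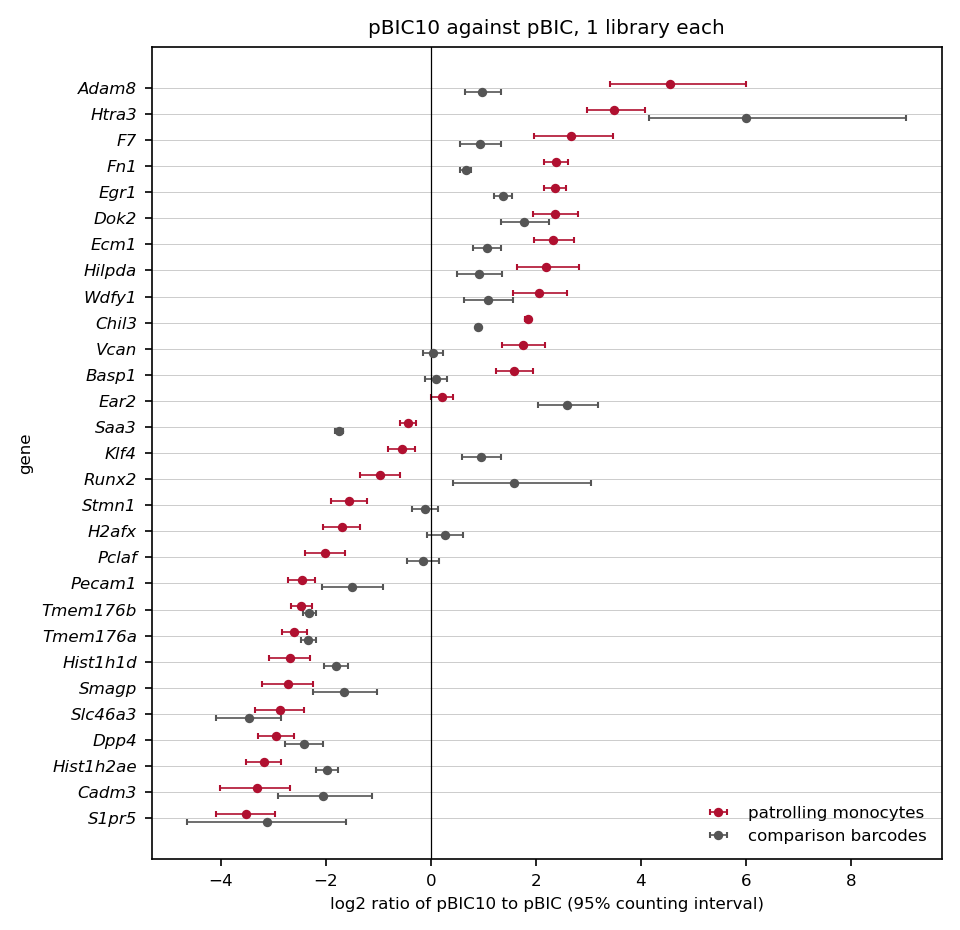
Log2 ratio of pBIC10 to pBIC with 95% counting intervals for each gene named in the comparison of genotypes, in patrolling monocytes and in comparison barcodes, 1 library per genotype. Adam8, Fn1, Vcan and Basp1 stand farther right in members, and Klf4 and Runx2 stand on opposite sides of 0.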

How the data were processed

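Raw UMI counts for every gene and barcode came in the matrices that the authors deposited. Per the submitters' processing notes the authors used Cell Ranger 3.0.1 and GRCm39, while the matrix header names version 5.0.1. The deposited TCR tables list productive contigs with their UMI counts. Members, comparison barcodes and gene lists were chosen with earlier results of these data known. UMIs were summed per gate and library and divided by the gate total. Levels have exact Poisson, ratios exact conditional binomial and shares Clopper-Pearson intervals at 95%. Only the ratio intervals were tried on simulated data. Those data were independent Poisson counts, so the trial says nothing on UMIs that gather in few barcodes. A count of 0 took a floor of 3 UMIs over the gate. Genes needed 20 UMIs over both sums, called means 2-fold, and gate genes were left out. Named genes were 12 higher and 8 lower in both libraries, 10 per direction between genotypes and 6 per direction whose ratio differed from comparison barcodes. They were ranked by the bound nearest to no difference, the last set by the gap between intervals. They needed 30 CPM and UMIs in 10% of barcodes on the higher side, and 100 UMIs in the genotype sets. Il10, its receptors and list examples were named without these limits. Csf1r, Fcgr4, Cd274 and the genes shown by gate UMIs were chosen after their values were seen.

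The planned erythroid gate held 8 and 17 barcodes, so one on Alas2 and Klf1 (at least 3 UMIs, 335 and 240 barcodes) was added. Doublets were kept. Scrublet (scanpy 1.11.5) was run in 3 configurations. With its automatic threshold, with or without a gene filter, it called 0 of 17871 pBIC and 367 of 14667 pBIC10 barcodes. A threshold of 0.3 was set after that and called 496 (2.78%) and 396 (2.70%), 2 and 4 of them members, and serves only as an alternative. Python 3.11.15, scipy 1.17.1 and numpy 2.4.6 were used. A result on 1 gene is not reported here.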

Additional observations from a re-analysis of the deposited data

Results flagged for a closer look

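Some ratios had opposite signs in the 2 groups compared, and in each case the difference between them was not tested. Between genotypes, the log2 ratio of pBIC10 to pBIC in members and in comparison barcodes was -1.0 and 0.39 for Nr4a1, -0.97 and 1.58 for Runx2, and -0.55 and 0.96 for Klf4. It was 2.31 and -0.68 for Mmp8, which rests on 9 UMIs in pBIC members, and 0.23 and -0.27 for Apoe. For Nr4a1 the comparison barcodes joined kinds that differed. Nr4a1 was at least 2-fold higher in pBIC10 among C1q-positive ones and short of 2-fold either way among Ly6c2-positive ones. Its pBIC level in C1q-positive barcodes lay under the floor of 3 UMIs. Between members and comparison barcodes, the log2 ratio in pBIC and in pBIC10 was 1.1 and -0.41 for Klf4, 0.52 and -1.44 for H2afx, -0.92 and 0.07 for Egr1, and -0.72 and 0.26 for Wdfy1.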

How the results depend on the processing

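No paired analysis was possible because each genotype had 1 library. With a gate of 3 UMIs the share of members was 1.36% in pBIC and 2.65% in pBIC10, with 2 of the 3 gate genes 1.10% and 2.21%, and without C1q-positive members 3.20% in pBIC10. Il10 in pBIC members was 12.03 CPM with 2 of the 3 gate genes and 11.99 CPM as the mean per barcode, and 4.62 CPM without the barcode richest in Il10. In pBIC10 it was 2.64 CPM as the mean per barcode and 2.39 CPM with Cd3e-positive barcodes kept. The 46 genes higher in both libraries became 78 with 3 gate UMIs, 115 with 2 gate genes, 74 without C1q-positive members, 25 with comparison barcodes free of the upper limits, 111 against Ly6c2-positive and 134 against C1q-positive barcodes, 86 without a filter, 27 at 100 UMIs and 12 at 3-fold. The 126 lower became 195, 275, 217 as the mean per barcode, 588 without the limits, 82 against Ly6c2-positive barcodes, 314, 40 and 37. Between genotypes the 395 higher became 630 centred, 670 without a filter, 170 at 100 UMIs and 178 at 3-fold, and the 1224 lower became 732, 2450, 511 and 429. Filters and folds change the counts by construction, and otherwise the cause was not tested. Directions turned against Ly6c2-positive barcodes for Apoe (0.31) and H2-M2 (1.27) in pBIC10. Against C1q-positive barcodes they turned for Lcn2 (1.97 and 0.26), S100a8 (1.98 and 0.56), S100a9 (2.31 and 0.37) and, in pBIC10, Mmp8 (0.020), and without the limits for Il10 (-0.33 and -1.20). Of the main results under alternatives 55 kept their size and 35 moved, and of single-gene values 536 kept theirs, 249 moved and 11 turned. Leaving out shared barcodes, the richest barcode and members under 5 gate UMIs was chosen after seeing the data. Keeping Cd3e-positive barcodes and the Scrublet threshold were chosen then too.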
